A study of Mus musculus with 12 samples.

Results

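Read counts of 10 genes that mark cytotoxic lymphocytes were followed through CD4+ T cell preparations in which such cells should be scarce. The genes were Cd8a, Cd8b1, Prf1, Gzma, Nkg7, Ctsw, Klrd1, Trdc, Crtam and Xcl1, a list given by name and matched from the mouse Ensembl identifier of each row to its symbol. All 10 were found among the 45669 rows of the deposited count table, and all 12 libraries were used. The cells came from lymph nodes of C57BL6 mice 12 weeks old and were purified with magnetic beads that remove other cells. Mice of the first genotype were wild type (WT/WT). Those of the second, called Anaef, were homozygous for Rasgrp1Anaef, a missense allele of the gene for the Ras exchange factor that acts below the T cell receptor. Total RNA was sequenced from 20000 untreated cells in 4 libraries of each genotype, numbered 1 to 4 in WT and 5 to 8 in Anaef. The remaining cells were pooled 2 by 2, exposed to cycloheximide for 1 minute and digested with micrococcal nuclease to give ribosome-protected fragments, called footprints here, with 2 pools per genotype (WT 1B, WT 2B, Anaef 3B and Anaef 4B).

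CD8 alpha and beta chains form the coreceptor that binds MHC class I on the T cells that kill. Killing by CD8 T cells and natural killer (NK) cells uses granules that hold perforin, which opens membranes, and granzymes, the proteases that enter through them. NK cells also carry C-type lectin receptors, and gamma-delta T cells carry a receptor whose delta chain ends in the segment encoded by Trdc. Several of these genes are also read in subsets of CD4+ T cells, so their RNA in a CD4+ preparation does not by itself name its source. In bulk samples, fewer cells of a type and less RNA per cell cannot be told apart.

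The labelled cell type was checked first. Cd4, the coreceptor of helper T cells, stood at 1046.9 to 1241.7 CPM (counts as a share of the TMM-scaled library, put on the usual common total) in WT total RNA against 1087.6 to 2068.1 in Anaef, and Cd3e, a chain of the T cell receptor complex, at 531.7 to 666.0 and 681.3 to 1070.2. Rasgrp1 was read in all 12 libraries, at 452.6 to 609.8 CPM in WT total RNA against 459.8 to 683.2 in Anaef, a level that does not check a missense label. RNA libraries held 15326842 to 40046317 counts for WT and 18580747 to 39467754 for Anaef, and footprint libraries 4044330 to 7009342 for WT and 2868943 to 3464868 for Anaef. WT replicate 3 and Anaef replicate 6 stood apart from the other total RNA libraries on the first 2 principal components, with 27.8% and 25.01% of counts on mitochondrial genes against 16.4% to 23.7% elsewhere. The labels do not say that each library came from its own animal, and the footprint pools came from the same preparations as the RNA. Every p-value therefore speaks only of the spread among these libraries.

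Footprints were counted per gene, so where ribosomes sit on a transcript was not measured. The bases around the start codon are shown for 4 genes. These were the genes whose footprints exceeded their RNA at an adjusted p of 0.05 in at least 1 genotype. Cd8b1 and Klrd1 are shown as members that did not pass. Each run reads 5′ to 3′ with 12 bases before and 12 after the annotated ATG, from GENCODE M21 transcripts on GRCm38. Capitals mark the ATG, a purine 3 bases before it and a G right after it.
Prf1: gcctgcagcAtcATGGccacgtgcctg
Ctsw: tgtggctgcAccATGacactgactgcc
Crtam: agcacagccAgcATGtggtggggagcc
Xcl1: aagacctcaGccATGagacttctcctc
Cd8b1: aaaagcgccAagATGcagccatggctc
Klrd1: acatcacttctcATGGcagtttctagg
Of the 9 members with an annotated start, 7 had the purine (ANNATG or GNNATG), 4 had the G (ATGG) and 2, Cd8a and Prf1, had both. Over 20698 protein-coding genes read on the transcript strand, 84.4% had the purine, 49.4% the G and 41.3% both. These letters are a description of the start and no measure of initiation.

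The CD8 coreceptor genes were read at very unequal levels. Cd8a (ENSMUSG00000053977, chr6:71373427-71379173 on GRCm38, plus strand) lies next to Cd8b1 (ENSMUSG00000053044, chr6:71322788-71337494, plus strand). Cd8b1 stood at 9.65, 6.46, 11.6 and 9.66 CPM in WT total RNA and at 4.65, 13.6, 8.43 and 14.8 in Anaef, so the Anaef libraries held both the lowest and the highest values. Cd8a stood at 1.92, 0.501, 0.712 and 1.08 CPM in WT and 0.687, 0, 1.49 and 0.456 in Anaef. The 0 of Anaef replicate 6 allows up to 0.103 CPM, the worth of 3 counts. Per kilobase of exon, the level of Cd8b1 was 12.3 to 40.1 times that of Cd8a in WT total RNA, and 7.81 to 11.9 times in WT footprints per kilobase of coding sequence. Cd4 per kilobase was 37.3 to 63.5 times Cd8b1 in WT total RNA and 33.6 to 105 times in Anaef, 2 ranges that overlap. In footprints per coding kilobase it was 35.0 to 43.1 times Cd8b1 in the WT pools and 50.1 to 51.0 times in the Anaef pools, which did not overlap. Cd4 over Cd8a in footprints ran from 336 to 415 in WT and from 556 to 639 in Anaef. With 2 pools a genotype, these ratios carry no test.

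Cd8b1 overlapped between the genotypes in both assays, and Cd8a in total RNA. In total RNA, none of the 10 members passed an adjusted p of 0.05 in edgeR's quasi-likelihood test, where 0.0224% of the 17876 genes tested did. The log2 fold change of Anaef over WT was 0.15 (SE 0.37, edgeR adjusted p = 0.989) for Cd8b1 and -0.67 (SE 0.96, adjusted p = 0.985) for Cd8a. In footprints Cd8b1 stood at 14.9 and 19.9 CPM in WT and 15.8 and 16.4 in Anaef. Both Anaef pools fell between the WT pools, with a log2 fold change of -0.10 (SE 0.25, edgeR adjusted p = 0.912). Cd8a footprints stood at 2.21 and 1.94 CPM in WT and 1.43 and 1.74 in Anaef, from 23 and 10 counts. Both Anaef pools were lower, as in 22.5% of all 9710 genes tested, but Cd8a was below the count filter there and was not tested. Without Anaef replicate 8 the total RNA value of Cd8b1 became -0.07, and without WT 2B its footprint value became 0.11, so its direction rests on single libraries.

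**Figure D1:**
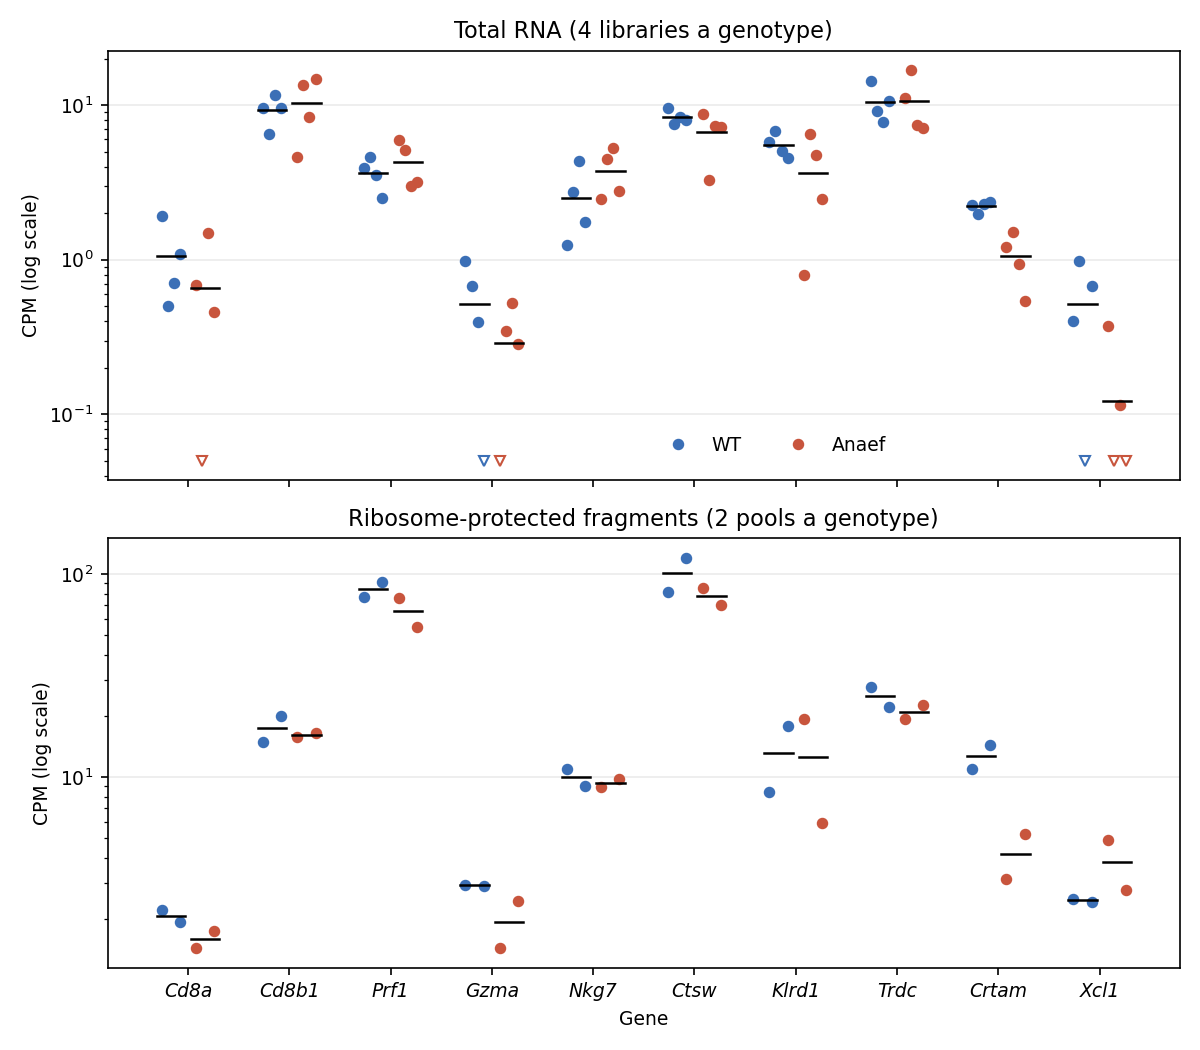
CPM of the 10 genes in each library on a log axis, total RNA above and footprints below, with blue points for WT, red for Anaef, black bars for group means and open triangles for libraries at 0. Crtam is lower in every Anaef library of both assays, and Cd8b1, Trdc and Nkg7 overlap in both.

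Of the granule genes, those for perforin and cathepsin W carried most of the footprints. Prf1 (ENSMUSG00000037202, chr10:61297833-61304680, plus strand) encodes perforin and stood at 3.94, 4.59, 3.56 and 2.52 CPM in WT total RNA against 5.97, 5.16, 2.98 and 3.16 in Anaef. Its footprints stood at 77.2 and 91.5 CPM in WT and 76.3 and 54.8 in Anaef. The genotypes overlapped in RNA, and in footprints the Anaef pools were both below the WT pools. That separation, too, is the one seen in 22.5% of all genes tested. The log2 fold change was 0.23 (SE 0.37, edgeR adjusted p = 0.985) in RNA and -0.36 (SE 0.21, adjusted p = 0.535) in footprints.

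Ctsw (ENSMUSG00000024910, chr19:5465043-5468507, minus strand) encodes cathepsin W, a papain-family protease of CD8 and NK cells. It stood at 9.59, 7.53, 8.38 and 8.05 CPM in WT total RNA against 8.82, 3.27, 7.38 and 7.21 in Anaef, and its footprints at 81.4 and 120 CPM in WT and 85.4 and 70.5 in Anaef. Anaef replicate 6 was the lowest, and the genotypes overlapped in both assays. Its log2 fold change was -0.33 (SE 0.33, edgeR adjusted p = 0.971) in RNA and -0.36 (SE 0.23, adjusted p = 0.559) in footprints. Ctsw shares 9 exonic bases with Fibp on the opposite strand.

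Nkg7 (ENSMUSG00000004612, chr7:43437073-43438249, plus strand), a granule membrane protein, ran the other way in RNA without passing the test. It stood at 1.25, 2.74, 4.35 and 1.76 CPM in WT total RNA against 2.48, 4.51, 5.25 and 2.77 in Anaef, with a log2 fold change of 0.59 (SE 0.47, edgeR adjusted p = 0.950). Its footprints stood at 10.9 and 8.98 CPM in WT and 8.89 and 9.77 in Anaef, and both assays overlapped. Gzma (ENSMUSG00000023132, chr13:113093825-113100981, minus strand), the gene of granzyme A, was among the scarcest, at 0.986, 0.675, 0.396 and 0 CPM in WT total RNA against 0, 0.344, 0.527 and 0.285 in Anaef. Its 2 libraries at 0, WT replicate 4 and Anaef replicate 5, allow up to 0.120 and 0.158 CPM. Gzma footprints were 20 and 12 counts in WT and 5 and 7 in Anaef, at 2.95, 2.91, 1.43 and 2.44 CPM. It passed the footprint filter of 2.66 CPM only through the WT pools, so its lower Anaef value there was built into the choice.

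The receptor genes varied more between libraries than between genotypes. Klrd1 (ENSMUSG00000030165, chr6:129591782-129598775, plus strand) encodes CD94, which pairs with NKG2 chains on NK and some CD8 T cells. It stood at 5.76, 6.79, 5.06 and 4.57 CPM in WT total RNA against 0.792, 6.47, 4.79 and 2.48 in Anaef, where the highest library was 8.17 times the lowest. Its footprints were 8.42 and 17.7 CPM in WT and 19.2 and 5.93 in Anaef, so the Anaef pools held both extremes. The log2 fold change was -0.61 (SE 0.53, edgeR adjusted p = 0.960) in RNA and 0.01 (SE 0.57, adjusted p = 0.995) in footprints, and the latter was -1.10 without Anaef 3B and -0.48 without WT 1B.

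Trdc (ENSMUSG00000104876, chr14:54142851-54148868, plus strand) is the constant segment of the delta chain. It stood at 14.3, 9.21, 7.83 and 10.6 CPM in WT total RNA against 11.1, 16.8, 7.45 and 7.10 in Anaef, with footprints of 27.8 and 22.1 CPM in WT and 19.2 and 22.7 in Anaef. The genotypes overlapped in both assays. The log2 fold change was 0.01 (SE 0.34, edgeR adjusted p = 0.998) in RNA and -0.26 (SE 0.22, adjusted p = 0.685) in footprints. Without WT replicate 3 and Anaef replicate 6, an alternative chosen after seeing the data, the RNA value was -0.41, so no direction is given for Trdc. It shares 207 exonic bases with Trdv5 and 96 with Gm43434, both on the opposite strand. The strand setting of the counting is not known here. Per kilobase, Cd3e was 44.2 to 65.9 times Trdc in WT total RNA and 60.2 to 93.2 times in Anaef, which overlap. In footprints per coding kilobase it was 19.6 to 27.0 times Trdc in WT and 28.9 to 33.2 times in Anaef, which do not.

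Crtam was the only one of the 10 that was lower in every Anaef library in both assays. Crtam (ENSMUSG00000032021, chr9:40969691-41004628, minus strand) encodes a surface protein of activated CD8 T and NK cells, and of a CD4 T cell subset, that binds Cadm1. It stood at 2.27, 1.98, 2.29 and 2.36 CPM in the WT total RNA libraries and 1.21, 1.51, 0.939 and 0.542 in the Anaef ones. In footprints it stood at 10.9 and 14.3 CPM in WT and 3.15 and 5.23 in Anaef. The WT libraries lay close together and all Anaef libraries lay below them. Of the genes tested, 2.01% were lower in every Anaef library in total RNA, and 0.864% of the 9487 tested in both assays were so in both.

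The Crtam difference did not pass the test across all genes. The log2 fold change was -1.08 (SE 0.45, unadjusted p = 0.0372, edgeR adjusted p = 0.869) in total RNA, and 5.62% of all genes tested there had an unadjusted p under 0.05. In footprints it was -1.59 (SE 0.38, unadjusted p = 0.00468, edgeR adjusted p = 0.344), the 122nd smallest p of 9710 genes, of which 11.9% had an unadjusted p under 0.05. The footprint test called no gene, 0% of those tested, at an adjusted p of 0.05, while DESeq2 called 56 genes and gave 5 members, Crtam among them, no adjusted p. With no filter on low counts Crtam was called in footprints at -1.61 (edgeR adjusted p = 0.00184), in a fit that called 514 genes, and its adjusted p over the alternatives that gave one ran from 0.00184 to 1. The fold change stayed below 0 in every alternative run, between -1.31 and -0.86 in RNA and between -1.99 and -1.25 in footprints when 1 library was left out.

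Most markers of B cells and plasma cells also leaned lower in Anaef, though not Ighm in total RNA. Of 14 B cell genes tested in total RNA, 13 had a value below 0, with a median log2 fold change of -1.36 against 0.01 over all genes. Ighm, its most abundant gene, went the other way in total RNA, at 745.7 ± 83.2 CPM in WT and 1053.3 ± 250.7 in Anaef (SD, n = 4). Its log2 fold change was 0.50 (SE 0.19, edgeR adjusted p = 0.840) there and -0.42 (SE 0.51) in footprints. With Ighm the list summed to 731.8 to 1000.9 CPM in WT and 814.3 to 1329.8 in Anaef total RNA. Summed without Ighm, it stood at 86.5 to 172 CPM in WT and 37.2 to 116 in Anaef total RNA. In footprints that sum was 193 to 298 and 122 to 194. None of the genes of the list was called. The plasma cell list stood at 1450.7 to 8494.8 CPM in WT and 492.9 to 1000.3 in Anaef total RNA. All 9 of its genes tested there were below 0, and 1, Igha, was called (-1.98, SE 0.22, edgeR adjusted p = 0.0268). That call was lost when any of the libraries but Anaef replicate 6 was left out (7 of 8, adjusted p from 0.0515 to 0.171). The myeloid list did not lean 1 way: 5 of 7 tested genes were below 0 in total RNA and 2 of 4 in footprints, none of them called. Summed, it stood at 32.1 to 43.9 CPM in WT and 19.2 to 38.0 in Anaef total RNA, but at 218.8 to 221.2 and 249.8 to 280.2 in footprints. The genes most read in the footprint sum were Bst2, with 838 and 474 counts in WT and 523 and 452 in Anaef, and Cst3. Cst3 had 297 and 279 counts in WT and 273 and 236 in Anaef. The 2 tested genes below 0 in footprints were Mpeg1, at -1.60 (SE 0.61, edgeR adjusted p = 0.390), and Itgam, at -0.11 (SE 0.34, adjusted p = 0.932). Cd14 was at 0 in all 12 libraries. Their part in the Crtam difference was not tested.

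Xcl1 (ENSMUSG00000026573, chr1:164931644-164935527, minus strand) encodes a chemokine, lymphotactin, that attracts dendritic cells bearing Xcr1. It stood at 0.400, 0.980, 0 and 0.681 CPM in WT total RNA against 0.370, 0, 0.115 and 0 in Anaef, from 77 and 12 counts in all. The 3 libraries at 0 allow up to 0.237 CPM in WT replicate 3, 0.103 in Anaef replicate 6 and 0.0855 in Anaef replicate 8, and the groups overlapped. Anaef over WT gave a log2 fold change of -2.23 (SE 1.27, edgeR adjusted p = 0.916). Footprints ran the other way, at 2.51 and 2.43 CPM in WT and 4.87 and 2.79 in Anaef, with a log2 fold change of 0.65 (SE 0.47, edgeR adjusted p = 0.625). Both Anaef pools were higher, as in 22.3% of all genes, and Xcl1 passed the footprint filter only through the Anaef pools. Xcl1 shares 98 of its 523 exonic bases with Gm20743 on the opposite strand.

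**Figure D2:**
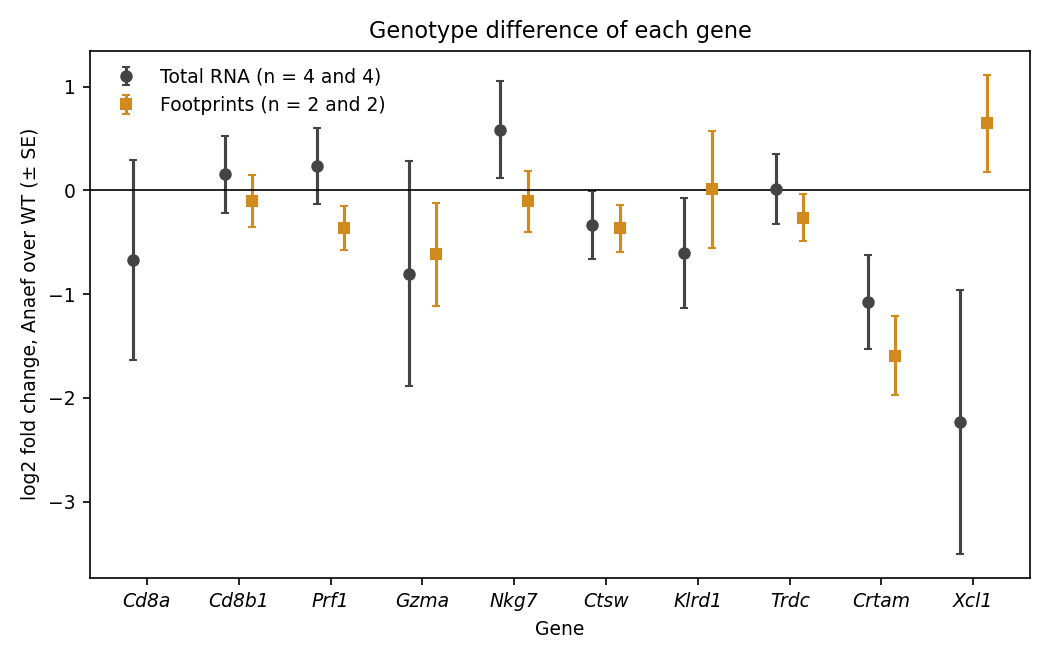
Log2 fold change of Anaef over WT for each gene with its SE, as circles for total RNA and squares for footprints (Cd8a was not tested in footprints). Crtam is at -1.08 and -1.59, Xcl1 changes side between the assays, and none of the values passed an adjusted p of 0.05.

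Over the 10 genes the median log2 fold change of Anaef over WT in total RNA was -0.47, with 6 values below 0 and 4 above, beside a median of 0.01 over all genes. In footprints 7 of the 9 tested were below 0, with a median of -0.26 beside 0.01. Gzma and Xcl1 entered that test through 1 genotype each, so these counts describe the list and carry no test. The change of footprints relative to RNA between the genotypes was also called for none of the 10 and for 0% of 19031 genes, of which 3.34% had an unadjusted p under 0.05; DESeq2 called 12 genes and gave no member an adjusted p. The largest such value was that of Xcl1, 2.83 (SE 1.95, unadjusted p = 0.171), and Crtam was at -0.52 (SE 0.64, unadjusted p = 0.429).

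The clearest result was within each genotype, where footprints of perforin and cathepsin W far exceeded their share of RNA. In WT cells, 3 of the 10 genes had more footprints relative to total RNA than the scaling over all genes sets as even, beside 19.6% of 17775 genes called in that direction and 26.4% of protein-coding ones. Those were Prf1, at a log2 ratio of 3.80 (SE 0.26, 13.95-fold, edgeR adjusted p = 1.27e-05), Ctsw, at 2.86 (SE 0.22, 7.28-fold, adjusted p = 1.87e-05), and Crtam, at 1.78 (SE 0.30, 3.44-fold, adjusted p = 0.00102). The ratio of Prf1 was above that of 97.6% of protein-coding genes and that of Ctsw above 95.2%. The median over protein-coding genes was -0.36, and Cd4 and Cd3e, the T cell genes, stood at -0.39 and -0.48. All 10 cytotoxic genes had a ratio above 0 in WT, with a median of 1.38, beside 31.9% of the 17775 genes and their median of -1.62. Only 11909 of those 17775 were protein-coding, and the share of these above 0 was not counted. Cd8b1, the lowest of the 10 at 0.18, was above only 60.5% of protein-coding genes.

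On 1 scale for all 12 libraries, Prf1 stood at 4.64, 5.41, 4.34 and 2.96 CPM in WT total RNA and at 55.0 and 65.1 in WT footprints, with no overlap. Nkg7 lay at the threshold, with a WT log2 ratio of 1.28 (SE 0.51, edgeR adjusted p = 0.0510), and it passed without WT replicate 3 (1.66, adjusted p = 0.00596) and with 5 of the 6 other alternatives. Trdc, at 0.53 (SE 0.29, edgeR adjusted p = 0.126), passed only without WT replicate 1 (0.72, adjusted p = 0.0478). Cd8b1, Cd8a and Klrd1 had WT log2 ratios of 0.18 (SE 0.30), 0.26 (SE 0.67) and 0.50 (SE 0.36), none of them called. Without WT 2B, Cd8b1 was at -0.05 and Klrd1 at -0.12. Gzma and Xcl1, with 73 and 77 RNA counts in WT, had WT log2 ratios of 1.75 (SE 1.09) and 1.48 (SE 0.98), neither of them called.

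In Anaef cells Prf1 and Ctsw again had more footprints than RNA. The log2 ratio of Prf1 was 3.18 (SE 0.38, edgeR adjusted p = 0.000157) and that of Ctsw 2.80 (SE 0.39, adjusted p = 0.000362). Xcl1 was the other call, at 4.29 (SE 1.42, adjusted p = 0.0268), from 12 RNA counts and 25 footprint counts. It entered that fit only through its 2 footprint pools, since no Anaef RNA library reached the filter of 0.384 CPM of the unscaled library, so its higher footprints were built into the choice. These 3 of 10 stand beside 16.4% of 18032 genes and 21.6% of protein-coding ones called in that direction. Without Anaef 3B the Xcl1 call was lost (3.78, adjusted p = 0.192), and likewise without Anaef 4B (4.62, adjusted p = 0.0915). Its adjusted p ran from 0.00926 to 0.192 over the alternatives that kept it, and a mean of at least 10 counts left it out. Crtam, at 1.24 (SE 0.65, edgeR adjusted p = 0.124), was not called in Anaef, and the test of the difference between the genotypes is the -0.52 above. RLE size factors moved the Anaef ratios of all genes up by 0.11 at the median, to 3.29 for Prf1 and 2.91 for Ctsw.

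**Figure D3:**
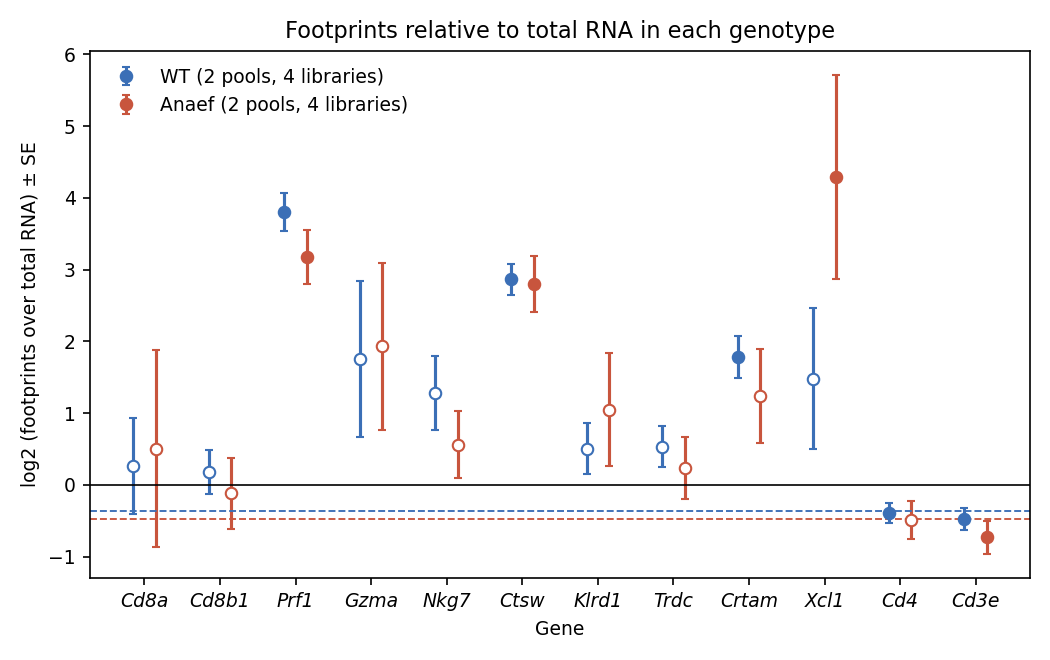
Log2 ratio of footprints to total RNA with its SE for the 10 genes, Cd4 and Cd3e, in WT (blue) and Anaef (red); filled points passed an adjusted p of 0.05 and dashed lines mark the median of protein-coding genes in each genotype. Prf1 and Ctsw lie between 2.80 and 3.80 in both genotypes, while Cd8b1 lies near 0 and Cd4 and Cd3e below it.

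Reads of total RNA fall on the whole transcript and footprints mostly on the coding part, so the coding share of the exons is given beside these ratios. It was 64.3% in Prf1, 59.0% in Ctsw, 65.4% in Xcl1 and 83.6% in Gzma, but 24.0% in Crtam, 20.4% in Cd8a and 11.8% in Trdc. Nkg7 had 54.2%, Klrd1 51.1% and Cd8b1 43.1%, and the T cell genes Cd4 and Cd3e had 34.0% and 13.9%. The kits of the assays differed as well. The part of either in the ratios was not tested.

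Levels between genes were set per kilobase of exon in RNA and per kilobase of coding sequence in footprints. In WT total RNA the order was Cd8b1 (6.30 ± 1.44 CPM per kilobase, SD, n = 4), Ctsw (4.45 ± 0.46), Klrd1 (4.33 ± 0.75), Nkg7 (2.76 ± 1.49), Trdc (2.71 ± 0.72), Prf1 (1.41 ± 0.34), Xcl1 (0.985 ± 0.797), Gzma (0.511 ± 0.417), Crtam (0.434 ± 0.033) and Cd8a (0.290 ± 0.172). The mean ± SD ranges of neighbours in this order overlapped, except for Trdc and Prf1. In WT footprints the order of the levels was another one. Ctsw led at 90.4 ± 24.5 CPM per coding kilobase (SD, n = 2), then Trdc at 54.4 ± 8.7 and Prf1 at 50.8 ± 6.1, which overlap. Cd8b1 followed at 27.2 ± 5.5, Nkg7 at 20.1 ± 2.8 and Klrd1 at 20.0 ± 10.1. Crtam (10.2), Xcl1 (7.22), Gzma (3.49) and Cd8a (2.81) came last. Prf1 thus stood below Klrd1 and Cd8b1 per length in RNA and above them in footprints.

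Other genes of the cytotoxic programme were taken from fixed lists, and none was called between the genotypes. Of 17 granule enzymes and machinery genes, 14 were tested in total RNA, 8 above 0 and 6 below, with a median log2 fold change of 0.02. The most abundant were Ctsd, a lysosomal protease, at 372 ± 53 CPM in WT and 392 ± 17 in Anaef (SD, n = 4), and Srgn, the granule proteoglycan, at 178 ± 40 and 207 ± 55. Stx11, a syntaxin of granule release, had the smallest p of the list, at 2.54 ± 2.51 CPM in WT and 8.32 ± 5.55 in Anaef (edgeR adjusted p = 0.882). Gzmb, the other main granzyme, had 107 and 18 counts in WT replicates 1 and 2, 0 in WT 3 and 4, and 2 in the Anaef libraries together. Most of its RNA reads thus came from WT replicate 1.

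NK cell receptors and adaptors gave 13 genes tested in total RNA of 21 in the table, 5 above 0 and 8 below, with a median of -0.03. Of these receptors and adaptors, 7 were tested in footprints, 4 above 0 and 3 below, with a median of 0.14. Their most abundant genes, Il2rb at 76.0 ± 12.7 CPM and Cd226 at 22.2 ± 4.3 in WT total RNA, are also expressed by CD4+ T cells. Ncr1 and Klra8, picked after their values were seen, were at or near 0 in most total RNA libraries, but other genes of the list were not. Klrk1 had 159, 234, 36 and 108 counts in the WT RNA libraries and 5, 278, 118 and 24 in the Anaef ones. Cd160 had 205, 71, 48 and 71 in WT and 37, 51, 139 and 224 in Anaef. Ncr1 had 10, 5, 0 and 2 counts in the WT libraries and 0, 0, 18 and 42 in the Anaef ones, and Klra8 had none in total RNA. Klrb1c, the NK1.1 antigen, stood at 0.790 ± 0.803 CPM in WT and 0.196 ± 0.212 in Anaef, and Klrc2, a partner of the Klrd1 product, at 0.671 ± 0.571 and 0.212 ± 0.068. Neither passed the test in total RNA (edgeR adjusted p = 0.912 and 0.871). In footprints Klrb1c had 34 and 13 counts in WT and 11 and 11 in Anaef.

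Of 19 gamma-delta T cell genes in the table, 12 were tested in total RNA, 3 above 0 and 9 below, with a median of -0.50. In footprints 7 were tested, 4 above 0 and 3 below, with a median of 0.11. The gamma chain constant genes Tcrg-C2 and Tcrg-C1 led in total RNA. They stood at 4.06 ± 2.21 and 3.11 ± 0.99 CPM in WT and at 2.80 ± 1.79 and 2.91 ± 1.77 in Anaef. Of 7 invariant NKT genes, 2 were above 0 and 5 below in total RNA, against 2 above and 3 below in footprints. Trav11, which the NKT receptor uses, stood at 4.85 ± 1.65 CPM in WT and 3.93 ± 1.90 in Anaef total RNA. Among chemokines, Ccl3 and Ccl4 had no count in any total RNA library. Ccl5 stood at 1.81 ± 1.01 CPM in WT and 0.560 ± 0.292 in Anaef (log2 fold change -1.67, SE 0.64, edgeR adjusted p = 0.840). Xcr1, the receptor of the Xcl1 product, stood at 5.98 ± 1.43 and 6.06 ± 2.02 CPM in total RNA. Its footprints were only 3 and 0 counts in WT and 1 and 1 in Anaef. Cadm1, the ligand of the Crtam product, had no count in total RNA.

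Factors of the CD8 lineage split 2 above and 6 below 0 in total RNA, and 4 above and 3 below in footprints. Runx3, which shuts off Cd4 in CD8 cells, was the most abundant in total RNA, at 60.5 ± 18.2 CPM in WT and 55.9 ± 12.0 in Anaef. Ccr9, a gut homing receptor, stood at 12.4 ± 3.0 and 20.5 ± 10.8 there (edgeR adjusted p = 0.896). All 10 CD4 T cell genes had a value above 0 in total RNA, with a median of 0.36 and none called. In footprints 6 were above 0 and 4 below, with a median of 0.21. Cd40lg, the helper ligand, stood at 111 ± 15 CPM in WT and 158 ± 29 in Anaef total RNA (0.51, SE 0.17, edgeR adjusted p = 0.796).

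**Figure D4:**
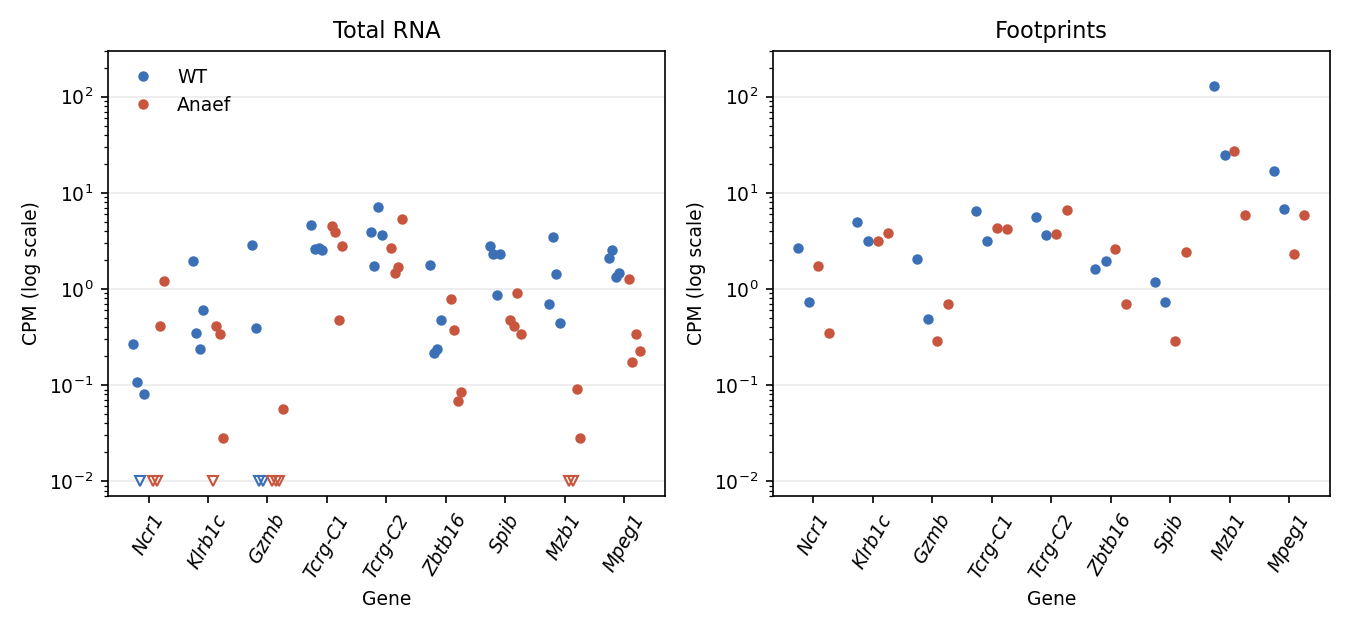
CPM per library on a log axis, with open triangles for libraries at 0. Shown are NK cell markers (Ncr1, and Klrb1c, which is also in the NKT list) and a granzyme (Gzmb). Beside them are markers of gamma-delta (Tcrg-C1, Tcrg-C2) and NKT cells (Zbtb16), B cells (Spib), plasma cells (Mzb1) and myeloid cells (Mpeg1). Spib and Mpeg1 have the smallest p of their lists in total RNA and were picked after their values were seen. In Anaef total RNA they are at 0.537 ± 0.259 and 0.503 ± 0.515 CPM, against 2.08 ± 0.84 and 1.86 ± 0.56 in WT (SD, n = 4), neither of them called. Spib footprints, not tested, show no such drop, with means of 1.36 ± 1.52 CPM for Anaef pools and 0.955 ± 0.320 for WT pools. Those of Mpeg1 do, with 4.11 ± 2.57 and 11.9 ± 7.2 CPM. Summed myeloid footprints are higher in Anaef, 249.8 to 280.2 CPM beside 218.8 to 221.2. Ncr1 is at 0 in 3 of the 8 total RNA libraries.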

How the data were processed

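The authors deposited 1 table of raw read counts per gene, with no normalization, for 8 total RNA libraries and 4 footprint libraries. Per the submitters' processing notes, TopHat 1.4.1, Bowtie 0.2.17 and the build GRCm38 were used. The counting tool, its annotation, its strand setting and what was masked in the footprints are not stated in any source used here. Of 45669 rows, 44509 were matched to GENCODE M21 for symbols, positions and lengths, 263 joined several identifiers and 897 had no match.

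Groups came from the labels. The counts entered the quasi-likelihood F test of edgeR 4.0.16 (R 4.3.3), scaled by TMM and filtered by filterByExpr (minimum count 10), with Benjamini-Hochberg adjustment over all genes at 0.05. Total RNA was fitted on 8 libraries, footprints on 4, the interaction of genotype and assay on 12 and each genotype's footprints against its RNA on 6. The SE was derived from the F statistic. CPM were set within each assay unless a scale of 12 libraries is named. Limits for libraries at 0 use 3 counts and cover only counting error, as PCR copies cannot be told from separate molecules. Replicates differed beyond sampling noise.

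Tested on simulated data with 200 genes changed by a log2 fold of 2, the steps recovered 90% in total RNA, 96% in footprints, 42.5% in the interaction, 89.5% in WT footprints against RNA and 68.5% in Anaef. The changed genes were drawn only from those with a mean above 5 CPM in the libraries fitted, and the simulated spread followed the trend over expression level. The shares were not split further by expression level. They therefore do not give the recovery for members with few reads, such as Crtam and Gzma, or for smaller changes. All members were named. Of each list, called genes, up to 3 with the smallest p and the 2 most abundant were eligible, and some genes that these rules name are not reported here. Gzmb, Ncr1, Klra8, Ccl3, Ccl4, Cadm1, Cd14 and the genes of the marker plot were added after their values were seen. The members and lists were chosen with earlier results of these data known. Alternatives were DESeq2 1.42.0, RLE size factors, limma-voom (limma 3.58.1), other filters, leaving out mitochondrial and Ig genes, a fit on all 12 libraries and leaving out each library.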

Additional observations from a re-analysis of the deposited data

How the results depend on the processing

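No member was called between the genotypes under any alternative run, except Crtam in footprints with no filter on low counts, where 1 member and 514 genes were called. DESeq2 gave no adjusted p to 5 members in footprints or to any of the 10 in the interaction, so it could not call them. Counts over all genes moved more. In total RNA (4 called) they were 166 with DESeq2, 2 with limma-voom, 0 without mitochondrial and Ig genes, 2 without WT replicate 3 and Anaef replicate 6, and 0 to 3 with 1 library left out. In footprints (0 called) they were 56 with DESeq2, 4 without mitochondrial and Ig genes, and 0 to 211 with 1 library left out, the highest without Anaef 3B and then 14 without Anaef 4B. The interaction gave 12 with DESeq2 and 0 to 1 with 1 library left out. Anaef footprints against RNA gave 7909 genes with limma-voom against 12106.

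Some signs turned. Trdc in total RNA was -0.13 with limma-voom and -0.41 without WT replicate 3 and Anaef replicate 6. Klrd1 in footprints was -0.041 with DESeq2, -0.046 on 12 libraries, -0.011 with limma-voom and -0.0091 with no filter, and in the interaction limma-voom gave -0.21 for Gzma and 0.10 for Ctsw. With 1 library left out, total RNA values ran from -0.067 to 0.40 for Cd8b1 and -0.30 to 0.20 for Trdc. Footprint values ran from -0.32 to 0.11 for Cd8b1, -0.23 to 0.040 for Nkg7 and -1.10 to 0.61 for Klrd1. Interaction values ran from -0.23 to 1.07 for Cd8a, -0.36 to 0.61 for Gzma, -0.33 to 0.24 for Ctsw, -0.56 to 1.16 for Klrd1 and -0.50 to 0.014 for Trdc. Footprints over RNA ran in WT from -0.046 to 0.37 for Cd8b1 and -0.12 to 0.95 for Klrd1, and in Anaef from -0.38 to 0.11 and -0.057 to 1.65. The cause was not tested. Prf1 and Ctsw were called in both genotypes and Crtam in WT under every alternative run. No paired analysis was possible because the genotypes share no replicate numbers and the labels do not say which RNA libraries belong to which footprint pool.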

Other observations

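Among 10670 genes with at least 5 CPM on average in total RNA, Rundc1 and Zxdb were among the 3 whose log2 CPM, centred on the gene's own mean, followed Cd8b1 most closely over the 8 libraries. Their root mean square differences were 0.17 and 0.19, and that of the closest, a row that joins several gene identifiers, was 0.16, beside a spread of 0.51 for Cd8b1 about its own mean. For Trdc, with a spread of 0.42, the closest 3 included Zfp160 (0.12) and Metap1 (0.20). These are distances over 8 libraries of unequal depth and carry no test.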
